A study of Mus musculus with 2 samples.

Results

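Testes explanted at E12.5 were cultured for 72 h with BGJ398 (FGFRi), a small molecule inhibitor of the FGF receptors, and their somatic cells were compared with those of testes cultured with the vehicle DMSO. The comparison uses 8 of 39 labelled libraries of gonadal somatic cells, chosen by their labels alone: XY FGFRi libraries M2, M4, M5 and M6 (FGFRi at 500 nM) and XY DMSO libraries M2, M4, M5 and M6. All 8 belong to library set 4. The other groups of the study were uncultured XX and XY gonads, XX gonads with DMSO, and XY gonads with either inhibitor or DMSO at 24 h or with the MEK1/2 inhibitor PD0325901 (MEKi, 500 nM) at 72 h. The 4 XY MEKi libraries of 72 h (M2, M3, M4 and M5), also of set 4, are used here as a second inhibitor, and the XX and XY DMSO libraries of 24 h as a measure of sex bias. The mice were ASMU Swiss crossed with an Oct4(Pou5fl)-eGFP line on a 129svJT2 background, genotype WT, in every group, and germ cells were removed by their GFP, so that the RNA is that of the GFP-negative cells. Gonads were cultured with the mesonephros attached, which was taken off before sorting. Each library was made from several pooled gonads, so the p-values measure the spread between pools and not between single embryos.

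FGFs bind receptor tyrosine kinases at the cell surface, and much of the signal passes through RAS and MEK1/2 to the kinases ERK1/2, which switch on transcription factors together with the pathway's own inhibitors. In the foetal testis FGF9 from Sertoli cells is known for supporting Sertoli cell fate against the WNT4 and RSPO1 signals of the ovary. The somatic cells of this organ also include interstitial progenitors, foetal Leydig cells, vessels with their pericytes, the coelomic epithelium and resident macrophages. The comparison asks which genes of these cells differ when the FGF receptors are inhibited after the testis has formed.

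Transcripts were counted from their 3′ ends with unique molecular identifiers, and levels are given as CPM, the counts relative to the scaled library size, which were not divided by gene length and so are compared between libraries but not between genes. Values of 4 libraries are always given in the order M2, M4, M5 and M6, and M2, M3, M4 and M5 for MEKi. Total counts were 1754343 to 2763610 with FGFRi and 1999334 to 2905471 with DMSO (two-sided exact permutation test, p = 0.8), and 19977 to 21132 and 20004 to 21570 genes were detected (exact permutation test, p = 0.971; 0.0286 is the smallest p that 4 against 4 allow). A count of 0 allows up to 3 counts. *Sox9*, the Sertoli cell factor, had 323 to 488 CPM with FGFRi and 253 to 374 with DMSO, the interstitial marker *Nr2f2* had 418 to 873 and 701 to 991, and the germ cell gene *Ddx4* had 0.577 to 4.67 and 0 to 4.48. *Amh*, a Sertoli cell hormone, was counted at only 2.89 to 6.11 CPM with FGFRi and 0.474 to 4.97 with DMSO, although it was lower still in XX cells at 24 h (log2 fold change of XX against XY −3.62, edgeR FDR 4.35e-05). Library FGFRi M5 stood apart. The summed level of 22 Sertoli cell genes was 3181, 3149.8, 5274 and 3410.3 CPM in the FGFRi libraries, highest in M5, and that of 17 interstitial progenitor genes was 5543, 4858, 3371 and 4835 CPM, lowest in M5.

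FGFRi changed the level of 276 of 15390 genes tested, which is 1.79%. Of these, 137 were higher (0.89%) and 139 lower (0.903%) than with DMSO. Such a differentially expressed gene (DEG) had a false discovery rate (FDR) below 0.05 over all genes tested, by edgeR's quasi-likelihood test, and a fold change of at least 1.5. Most changes were modest: the median log2 fold change was 0.83 among the increases and −0.94 among the decreases, 99 DEGs reached 2-fold (43 higher, 56 lower) and 28 reached 4-fold (9 higher, 19 lower). Among the genes named by rule, the 8 largest decreases were all in genes of macrophages, and the 5 largest increases were in *Tnfsf11*, *Sycp1*, *Actg2*, *Prune2* and *Comp*. In 221 of the 276 DEGs the 4 FGFRi and 4 DMSO libraries did not overlap, which held for 7.39% of all genes tested. The 15 genes named in each direction for the largest change were picked among DEGs without overlap. For them the lack of overlap was set by the rule and is no further support. The median log2 fold change over all genes tested was 0.0066.

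The count of DEGs depended on single pools and on the null hypothesis. It was 91 without FGFRi M5, 123 without DMSO M2, 162 without DMSO M6 and 170 without FGFRi M6, and 55 of the 276 DEGs (22 higher, 33 lower) were called whichever library was left out. Tested against a fold of 1.5 in place of no change, 6 genes passed in edgeR and 0 in voom with quality weights, where 178 had an unadjusted p below 0.05 (2240 in the edgeR test against no change). The 6 were *C1qa*, *C1qb*, *Ctss*, *Fcer1g*, *Ccl12* and *Krt18*, and every other DEG named below did not pass that stricter test.

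**Figure D1:**
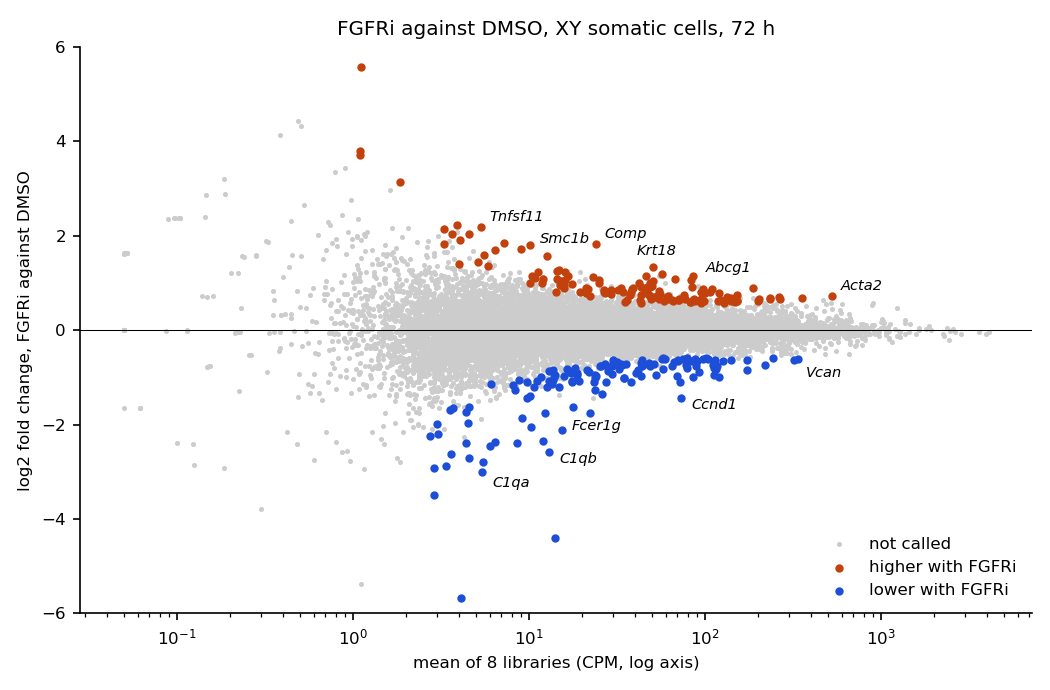
Each point is 1 of the 15390 genes tested, with its mean level over the 8 libraries (CPM, log axis; means below 0.05 are drawn at 0.05) and its log2 fold change of FGFRi against DMSO. The 137 DEGs that were higher are orange, the 139 that were lower are blue, and the macrophage genes *C1qa* and *C1qb* are among the largest decreases.

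Of the 25 gene lists examined, that of macrophages held most decreases. All lists were chosen with earlier results of these data known, so their counts, here and below, describe the data and do not test them. Genes were kept by their level in any group. Members low with FGFRi, such as *C1qa*, were thus tested only through groups where they were higher. Of its 30 genes 21 were tested, and 12 of them were lower with FGFRi, where 0.903% of all genes were, none was higher, and all 21 had a log2 fold change below 0, with a median of −2.09 against 0.0066 over all genes. The complement genes *C1qa*, *C1qb* and *C1qc*, which encode the chains of the C1q complex made by tissue macrophages, lie next to each other on chromosome 4 of GRCm39 (*C1qb* from 136606009 to 136613511, *C1qc* from 136616466 to 136620376, *C1qa* from 136623223 to 136626161). *C1qb* had 4.04, 5.74, 3.23 and 1.67 CPM with FGFRi and 20.9, 28.8, 27.9 and 11.4 CPM with DMSO. Its highest FGFRi library lay well under its lowest DMSO library, M6, and its log2 fold change was −2.59 (standard error 0.358, edgeR FDR 9.38e-06). *C1qa* had 1.15, 1.23, 1.796 and 0.418 CPM with FGFRi, from 1 to 5 counts a library, and 11.6, 15.9, 7.47 and 3.79 CPM with DMSO, from 8 to 35 counts. The groups did not overlap, and the log2 fold change was −3.003 (standard error 0.577, edgeR FDR 0.00147), the largest decrease among the genes named by rule. Gene positions below are on the same build.

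Receptor and lysosomal genes of macrophages also fell. *Csf1r*, the receptor for the macrophage growth factors CSF1 and IL34, had 3.46, 8.61, 2.51 and 1.25 CPM with FGFRi and 17.3, 28.3, 11.95 and 8.53 CPM with DMSO. FGFRi M4 just overlapped DMSO M6, and the log2 fold change was −2.05 (standard error 0.430, edgeR FDR 0.00387). *Cx3cr1*, the receptor for the chemokine CX3CL1, had 2.89, 2.05, 1.796 and 4.18 CPM against 12.96, 18.9, 18.4 and 7.58 CPM, with every FGFRi library below 5 CPM and every DMSO library above it (log2 fold change −2.40, edgeR FDR 0.00187). *Ctss*, the lysosomal protease cathepsin S, had 2.89, 5.33, 3.59 and 3.76 CPM against 19.6, 33.8, 16.4 and 11.4 CPM. *Fcer1g*, the shared chain of Fc receptors, had 7.51, 4.10, 5.75 and 5.85 CPM against 28.6, 38.8, 23.4 and 9.001 CPM. Neither gene's groups overlapped, and the log2 fold changes were −2.35, edgeR FDR 6.69e-05, and −2.12, edgeR FDR 0.000148. The remaining DEGs of the list were *C1qc* (−2.37, edgeR FDR 0.00711), the membrane proteins *Ms4a6c* (−2.79, edgeR FDR 0.00387) and *Ms4a7* (−2.72, edgeR FDR 0.0119), the actin-binding *Aif1* (−2.46, edgeR FDR 0.0127), the lysosomal *Laptm5* (−1.63, edgeR FDR 0.00147) and *Ly86* (−2.19, edgeR FDR 0.0405). *Csf1r*, *Ly86* and *Ccl12* are named beyond the rule, after their values were seen. The macrophage markers *Adgre1*, *Spi1*, *Itgam*, *Trem2* and *Timd4* were among the 9 too low to be tested.

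The macrophage gene with most counts, lysozyme 2 (*Lyz2*), did not pass: it had 40.4, 44.3, 26.2 and 60.2 CPM with FGFRi and 74.1, 97.5, 44.8 and 30.3 CPM with DMSO (log2 fold change −0.54, edgeR FDR 0.486), and FGFRi M6 exceeded DMSO M5 and M6. The summed level of the 21 genes was 106, 121, 91.2 and 124 CPM with FGFRi and 326, 449.6, 285 and 145 CPM with DMSO. DMSO M6 held by far the least of the DMSO libraries and lay close to the FGFRi libraries, yet without it 13 of the 21 genes were called, and with any other library left out 10 to 12. Of all genes, 162 were called without DMSO M6, and 91 to 357 over the fits with 1 library left out. Fits to the 8 libraries alone called 7, without *C1qa*, *C1qc*, *Ms4a6c*, *Ms4a7* and *Ly86*. With a library left out, calls were lost for *Aif1* without FGFRi M5 (−3.09 to −2.08), *Ms4a7* without DMSO M4 (−3.05 to −2.26) and *Ly86* without FGFRi M2, FGFRi M5, DMSO M2, DMSO M4 or DMSO M5 (−2.74 to −1.87), where the values in parentheses, here and below, are the lowest and highest log2 fold changes with 1 library left out. In RNA from a mixture of cells, fewer macrophages and less of these transcripts per macrophage cannot be told apart. *Ccl12*, a chemokine of macrophages that was not on the list, had 0 to 1 counts in the FGFRi libraries and 6 to 41 in the DMSO libraries, and was not called without DMSO M2 or M4 or in 3 fits to fewer libraries.

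MEKi gave low macrophage levels too. The summed level was 157, 102, 129.6 and 144 CPM in the MEKi libraries, with M3 inside the FGFRi range and the others above it, and none of the 21 genes was a DEG between FGFRi and MEKi in either direction, where 6.37% of all genes were. The comparisons of FGFRi and of MEKi with DMSO share the DMSO libraries. With MEKi 12 of the 21 genes were lower than with DMSO, where 4.2% of all genes were, and 0 higher, where 2.24% were. *C1qb* had a log2 fold change of −2.59 with FGFRi and −1.62 with MEKi, *Csf1r* −2.05 and −1.80, and *Ms4a7* −2.72 and −2.57.

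Ligands that macrophages respond to did not pass the test: 0 of 6 tested were DEGs, where 1.79% of all genes were. At that share 0 of 6 is no result about these ligands. *Csf1*, the main macrophage growth factor, had 19.1, 15.6, 22.3 and 18.8 CPM with FGFRi and 21.6, 21.9, 20.9 and 20.8 CPM with DMSO, and the ranges overlapped (log2 fold change −0.17, standard error 0.254, edgeR FDR 0.838). The other 5 were *Il34* (0.59), *Cx3cl1* (0.44), *Ccl2* (0.0055), *Tgfb1* (−0.74) and *Cxcl12* (−0.36), with edgeR FDRs from 0.0858 to 0.999. In *Tgfb1* alone of the 6 the libraries did not overlap, at 5.02 to 7.90 CPM with FGFRi and 8.53 to 13.4 with DMSO. The same held for 7.39% of all genes. Neutrophil genes did not pass: all 9 tested had a log2 fold change above 0 (median 1.09), 0 were DEGs, and their sum was 382, 397, 170.3 and 445 CPM with FGFRi and 258, 215, 211 and 49.7 CPM with DMSO, where M6 was again lowest. With no filter on low counts 6 of these were called, among 363 genes called in all. Against MEKi, 8 of the 9 were higher with FGFRi, where 4.72% of all genes were. Erythroid genes (12 tested, median 0.36) and endothelial genes (20 tested, median −0.39, 18 of them below 0) held no DEG against DMSO. The summed endothelial level was 213, 169, 290.3 and 176 CPM with FGFRi and 269, 301, 316 and 188 CPM with DMSO. DMSO M6 thus held the least of its group in macrophage, neutrophil and endothelial genes, and also in erythroid genes (317 CPM against 909 to 1729.8 CPM).

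**Figure D2:**
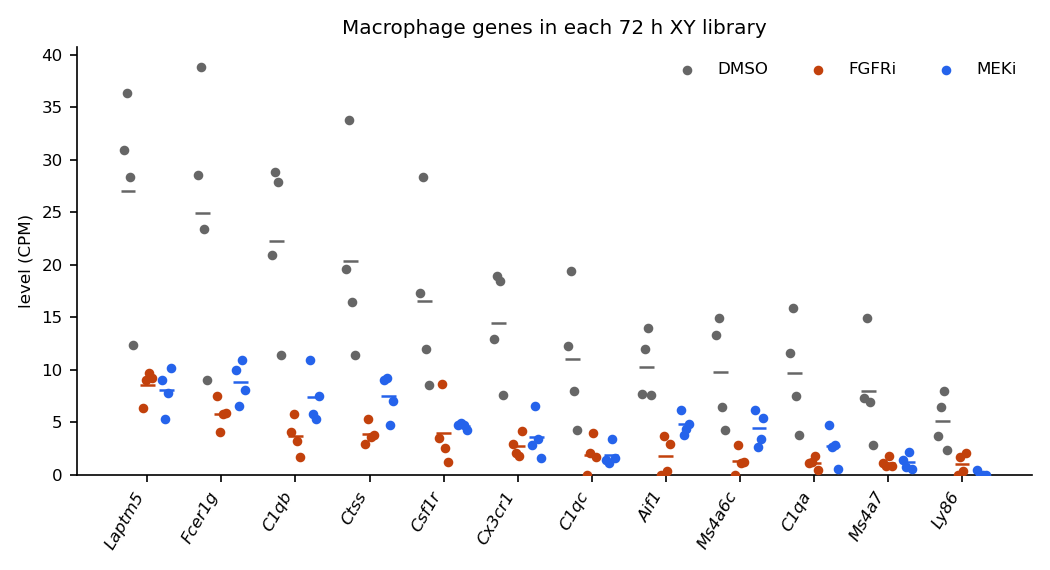
Level (CPM) of the 12 macrophage genes that were DEGs, in the 4 DMSO (grey), 4 FGFRi (orange) and 4 MEKi (blue) libraries of 72 h, with a bar at the mean of each group. All 4 FGFRi libraries lie below all 4 DMSO libraries in 11 of these 12 genes, which were chosen as DEGs (221 of all 276 DEGs and 7.39% of all genes did not overlap), and *Csf1r* is the exception.

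Genes that report ERK activity were mostly not DEGs between FGFRi and DMSO at 72 h. Of 19 genes tested on a list of ERK output and feedback genes, 3 were lower (*Ccnd1*, *Spry1* and *Spred1*), 1 was higher (*Ier3*) and 15 did not pass. Of all genes 0.903% were lower and 0.89% higher. The median log2 fold change of the 19 was −0.15, and 15 of them lay below 0. In 5 of the 19 the groups did not overlap, where 7.39% of all genes did not. *Ccnd1*, cyclin D1, which drives cells out of G1, had 36.9, 47.9, 24.1 and 47.7 CPM with FGFRi and 79.1, 85.0, 176 and 87.2 CPM with DMSO. Every FGFRi library lay below every DMSO library, of which M5 was by far the highest, and the log2 fold change was −1.44 (standard error 0.268, edgeR FDR 0.000975). *Spry1*, which encodes a Sprouty inhibitor of receptor tyrosine kinase signalling, had 13.9, 12.7, 7.54 and 11.7 CPM against 23.9, 26.4, 18.4 and 26.1 CPM, without overlap (log2 fold change −1.07, edgeR FDR 0.0285). *Spred1*, an inhibitor of RAS to RAF signalling, had 47.9, 63.5, 55.7 and 51.9 CPM against 84.4, 79.1, 76.2 and 104 CPM, again without overlap (−0.65, edgeR FDR 0.0185). The immediate early gene *Ier3* had 60.04, 40.2, 111 and 61.9 CPM against 33.9, 30.8, 33.4 and 34.1 CPM, with the lowest FGFRi library, M4, above every DMSO library and M5 highest (log2 fold change 1.05, edgeR FDR 0.0133).

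Several ERK targets overlapped between FGFRi and DMSO and were low with MEKi. *Dusp6*, a phosphatase that inactivates ERK1/2, had 76.8, 87.3, 102 and 84.9 CPM with FGFRi and 75.8, 120.4, 93.6 and 81.0 CPM with DMSO, and 10.4, 26.4, 24.1 and 19.9 CPM with MEKi. Its FGFRi and DMSO libraries were intermixed and its MEKi libraries lay apart from both, at log2 fold changes of −0.068 (standard error 0.185, edgeR FDR 0.922) for FGFRi against DMSO and 2.09 (standard error 0.214, edgeR FDR 5.63e-10) for FGFRi against MEKi. *Spry4*, another Sprouty, had 25.4, 12.7, 13.7 and 13.4 CPM with FGFRi, 22.3, 20.9, 18.4 and 17.5 CPM with DMSO and 1.42, 1.53, 2.50 and 2.15 CPM with MEKi. Among its FGFRi libraries M2 was above every DMSO library and the other 3 were below. Of the ETS factors, *Etv5* had 29.4, 31.6, 38.1 and 31.4 CPM with FGFRi, 28.9, 34.3, 38.8 and 40.3 CPM with DMSO and 9.02, 9.56, 9.39 and 4.297 CPM with MEKi. Both genes overlapped between FGFRi and DMSO and were well above every MEKi library with FGFRi (FGFRi against MEKi 3.003, edgeR FDR 5.59e-08, and 1.98, edgeR FDR 1.44e-08). In all, 8 of the 19 genes were higher with FGFRi than with MEKi and 0 lower, where 4.72% and 1.65% of all genes were, and the median log2 fold change between the inhibitors was 0.60. Beside those named, they were *Etv4* (2.30), *Dusp4* (2.14), *Spry1* (1.31), *Dusp5* (0.83) and *Spred2* (0.74). *Ccnd1* and *Spred1* were not DEGs between the inhibitors (0.041, edgeR FDR 0.959, and 0.29, edgeR FDR 0.313), and they had 27.2 to 52.2 and 33.8 to 52.2 CPM with MEKi.

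Against DMSO, the members of the ERK list that did not pass had these log2 fold changes with FGFRi: *Spry2* −0.82, *Spry4* −0.32, *Spred2* −0.20, *Spred3* −0.47, *Dusp4* −0.10, *Dusp5* 0.017, *Dusp6* −0.068, *Etv1* −0.15, *Etv4* 0.11, *Etv5* −0.11, *Il17rd* −0.14, *Egr1* −0.075, *Fos* 0.078, *Myc* −0.18 and *Phlda1* −0.19. The nearest to passing was *Spry2*, with 25.4, 12.7, 17.6 and 25.9 CPM against 30.2, 28.3, 41.8 and 42.6 CPM and no overlap (edgeR FDR 0.0813); the others had FDRs from 0.64 to 0.988. A p that misses the threshold does not show that the levels were equal. Calls were lost with a library left out for *Spry1* without FGFRi M5, FGFRi M6, DMSO M2, DMSO M4 or DMSO M6 (−1.17 to −0.90), *Spred1* without FGFRi M5, FGFRi M6 or DMSO M6 (−0.73 to −0.54) and *Ier3* without FGFRi M5 or DMSO M2 (0.70 to 1.24).

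**Figure D3:**
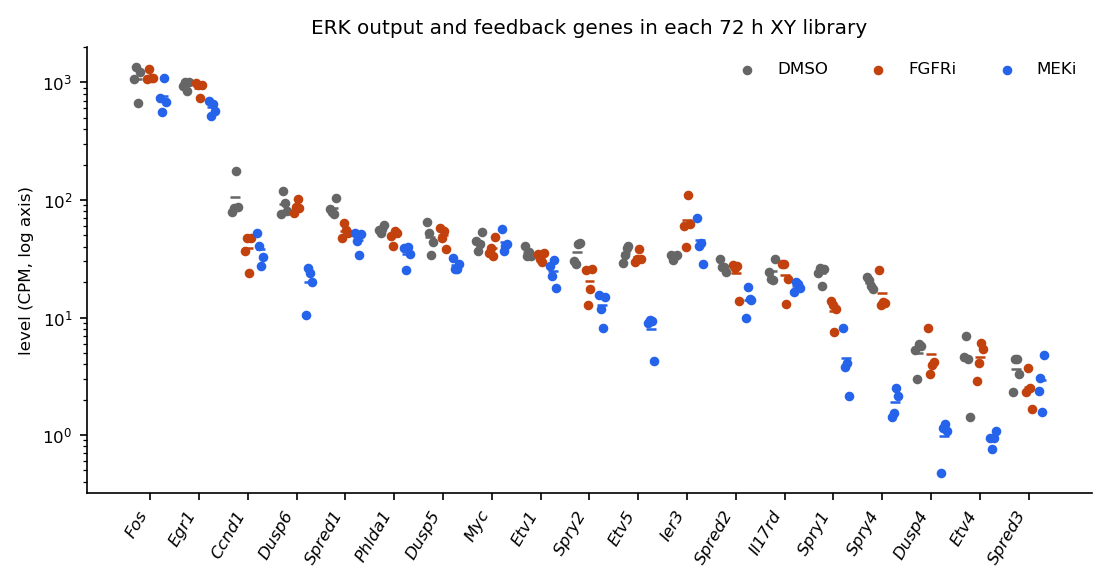
Level (CPM, log axis) of the 19 ERK output and feedback genes tested, in the 4 DMSO (grey), 4 FGFRi (orange) and 4 MEKi (blue) libraries of 72 h, with a bar at each mean. In *Dusp6*, *Spry4*, *Etv5*, *Etv4* and *Dusp4* the MEKi libraries lie apart while the FGFRi and DMSO ranges overlap, whereas *Ccnd1* is low with both inhibitors.

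The components of FGF signalling itself held no DEG, where 1.79% of all genes were DEGs. At that share the lack of calls is no result about this list. Of 22 listed genes 17 were tested, the median log2 fold change was −0.13, and the edgeR FDRs ran from 0.111 to 0.982. *Fgf9*, the Sertoli cell ligand, had 16.2, 19.7, 22.6 and 32.6 CPM with FGFRi and 15.3, 20.9, 15.9 and 25.6 CPM with DMSO. *Fgfr1*, a target of the inhibitor, had 56.6, 64.3, 54.2 and 57.7 CPM against 89.1, 74.6, 63.2 and 69.2 CPM, and *Fgfr2* had 15.6, 23.8, 17.2 and 19.2 CPM against 29.6, 25.4, 20.9 and 27.5 CPM. The libraries of these 3 genes overlapped between the groups, and the log2 fold changes were 0.25, −0.35 and −0.45. The other ligands were *Fgf1* (0.091), *Fgf2* (−0.29), *Fgf7* (−0.13), *Fgf10* (−0.25) and *Fgf18* (0.42), and the other receptors were *Fgfr3* (−0.036), *Fgfr4* (−1.53) and the decoy *Fgfrl1* (−0.48). *Fgfr4*, at 0.410 to 2.51 CPM with FGFRi and 3.32 to 4.48 with DMSO, did not pass (edgeR FDR 0.235). It was the only member without overlap, which held for 7.39% of all genes. The receptor partners *Flrt2* (−0.54) and *Flrt3* (0.12) and the adaptors *Frs2* (−0.17), *Gab1* (0.0298), *Grb2* (0.18) and *Sos1* (−0.0798) complete the list.

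In the contractile and pericyte genes, which form 1 list, changes went both ways. Of 10 genes tested, 5 were higher with FGFRi and 3 lower, against 0.89% and 0.903% of all genes. All 5 that rose encode parts of the contractile apparatus of smooth muscle and peritubular myoid cells. The 3 that fell are markers of the pericytes that wrap small vessels. This split was not made in the list beforehand. The other 2 members, *Cnn1* and *Des*, did not pass, and of the 10 genes 6 had a log2 fold change above 0 and 4 below. *Acta2*, smooth muscle α-actin (chromosome 19 from 34217737 to 34232990), had 684, 713, 499 and 751 CPM with FGFRi and 416, 388, 346 and 454 CPM with DMSO. The lowest FGFRi library, M5, exceeded the highest DMSO library, M6, and the log2 fold change was 0.72 (standard error 0.120, edgeR FDR 0.000205). *Tagln*, transgelin, had 92.9, 86.1, 83.0 and 109 CPM against 37.2, 45.8, 44.3 and 47.8 CPM, without overlap (log2 fold change 1.09, standard error 0.179, edgeR FDR 0.000174). Smooth muscle myosin heavy chain (*Myh11*) had 153, 139, 75.1 and 145 CPM against 88.1, 63.2, 54.3 and 70.1 CPM, with FGFRi M5 below DMSO M2 (0.87, edgeR FDR 0.00387). The enteric actin *Actg2* had 5.33 to 9.62 CPM with FGFRi against 1.42 to 2.49 CPM (2.04, edgeR FDR 0.0309), and *Myl9*, a myosin light chain named beyond the rule to complete the 5, had a log2 fold change of 0.71, edgeR FDR 2.78e-05.

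*Rgs5*, a regulator of G protein signalling that marks pericytes, had 7.51, 8.61, 4.67 and 5.44 CPM with FGFRi, 17.6, 12.4, 16.4 and 12.8 CPM with DMSO and 1.90, 0.382, 0.939 and 0.537 CPM with MEKi. The 3 groups did not overlap, with log2 fold changes of −1.199 (standard error 0.302, edgeR FDR 0.0188) for FGFRi against DMSO and 2.74, edgeR FDR 3.39e-05, for FGFRi against MEKi. *Cspg4*, the proteoglycan NG2, had 64.7, 88.9, 38.8 and 72.3 CPM with FGFRi against 135, 120.4, 91.6 and 99.0 CPM with DMSO (−0.76, edgeR FDR 0.00677), and *Notch3* had 23.7, 21.3, 12.6 and 19.7 against 34.2, 31.3, 29.4 and 33.6 CPM (−0.76, edgeR FDR 0.0177). Neither overlapped. For both, FGFRi M5 held the lowest level, and the pericyte calls were lost without FGFRi M5 or DMSO M2. Calls in this list were lost for *Actg2* without FGFRi M5, FGFRi M6, DMSO M2, DMSO M5 or DMSO M6 (1.88 to 2.22), *Rgs5* without FGFRi M5, FGFRi M6 or DMSO M2 (−1.38 to −1.06), *Cspg4* without FGFRi M5 or DMSO M2 (−0.95 to −0.57) and *Notch3* without FGFRi M5, DMSO M2 or DMSO M6 (−0.86 to −0.59). Of the 5 contractile genes *Tagln* alone was a DEG between the inhibitors: it had 49.8, 53.5, 57.3 and 52.1 CPM with MEKi, below all FGFRi libraries (FGFRi against MEKi 0.80, edgeR FDR 0.00129). *Acta2* had 791, 753, 829.7 and 829 CPM there, above all FGFRi libraries but not a DEG (−0.28, edgeR FDR 0.141).

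Of 17 genes of interstitial progenitors 2 fell with FGFRi, *Pdgfrb* and *Lum*, and none rose, against 0.903% lower and 0.89% higher of all genes. A log2 fold change below 0 was found in 16 of them, with a median of −0.32. The growth factor receptor *Pdgfrb* had 92.4, 116, 45.6 and 81.1 CPM with FGFRi against 148, 163, 160.3 and 119 CPM with DMSO and 54.6, 54.3, 58.5 and 60.2 CPM with MEKi. Its FGFRi libraries lay below the DMSO libraries, with M5 lowest (log2 fold change −0.82, standard error 0.169, edgeR FDR 0.00323). The proteoglycan lumican (*Lum*) had 110.3, 90.6, 82.3 and 114 CPM against 170.2, 176, 144 and 134 CPM, without overlap (−0.66, edgeR FDR 0.0158), and 187, 177, 192 and 233 CPM with MEKi, above every FGFRi library (FGFRi against MEKi −0.99, edgeR FDR 1.23e-05). *Col1a1*, the gene of the list with most counts, had 1327, 977, 830.2 and 1137 CPM against 1176, 1298, 1311 and 1273 CPM (−0.24, edgeR FDR 0.355). FGFRi M5 was lowest in both genes and in the summed level of the list, and neither gene was called without it. With a library left out the calls were lost for *Pdgfrb* without FGFRi M5 (−1.04 to −0.61) and *Lum* without FGFRi M5, DMSO M2 or DMSO M4 (−0.74 to −0.58).

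Of 29 collagen, laminin and other matrix genes 1 was higher and 2 were lower, against 0.89% and 0.903% of all genes. The median log2 fold change was −0.057. The increase was in *Comp*, the cartilage oligomeric matrix protein, with 19.6, 38.1, 59.3 and 32.6 CPM against 9.64, 8.45, 15.4 and 9.47 CPM. Every FGFRi library lay above every DMSO library, and the log2 fold change was 1.82 (standard error 0.381, edgeR FDR 0.00412). Periostin (*Postn*), a matrix protein of fibroblasts, had 48.5, 30.3, 34.1 and 33.0 CPM against 61.2, 85.5, 86.6 and 44.5 CPM, with FGFRi M2 above DMSO M6 (−0.94, edgeR FDR 0.0215), and versican (*Vcan*), a large proteoglycan, had 342, 336, 164 and 239 CPM against 442, 459, 318 and 411 CPM, with FGFRi M2 and M4 above DMSO M5 (−0.60, edgeR FDR 0.0206). *Col1a2*, the matrix gene with most counts, overlapped between the groups (−0.22, edgeR FDR 0.512). Calls were lost for *Comp* without FGFRi M5 (1.498 to 2.03), *Postn* without FGFRi M4, FGFRi M5, FGFRi M6, DMSO M4 or DMSO M5 (−1.10 to −0.82) and *Vcan* without FGFRi M5, FGFRi M6, DMSO M2, DMSO M4 or DMSO M6 (−0.73 to −0.42), and *Postn* and *Vcan* were lost in 1 further setting each, DESeq2 and the fit to the 8 libraries alone.

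*Krt18* and *Krt8* rose with FGFRi. These keratins, whose proteins pair into the filaments of simple epithelia, are neighbours on chromosome 15 (*Krt8* from 101905133 to 101912917, *Krt18* from 101936615 to 101940462, GRCm39). *Krt18* had 83.7, 70.5, 62.5 and 73.6 CPM with FGFRi and 22.6, 47.2, 25.9 and 20.4 CPM with DMSO. Its lowest FGFRi library, M5, exceeded its highest DMSO library, M4, and the log2 fold change was 1.33 (standard error 0.177, edgeR FDR 6.73e-06). *Krt8* had 64.7, 47.9, 76.5 and 64.4 CPM against 20.9, 56.2, 27.4 and 11.8 CPM, with DMSO M4 inside the FGFRi range and DMSO M6 lowest of all (log2 fold change 1.15, standard error 0.243, edgeR FDR 0.00394). Both were called whichever library was left out. They stood on a list of duct epithelium markers, of which 9 were tested, 2 were higher (0.89% of all genes) and all 9 had a log2 fold change above 0 (median 0.90). The summed level of that list was 257, 223, 268 and 248 CPM with FGFRi and 127, 196, 107 and 132 CPM with DMSO, without overlap. Its member with most counts, the homeobox gene *Emx2*, did not pass (0.22, edgeR FDR 0.595), nor did *Pax8* (0.47) or the epithelial cadherin *Cdh1* (0.90), and the duct markers *Pax2*, *Cldn3* and *Cldn6* were too low to be tested.

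On the list of coelomic epithelium markers, the layer that covers the gonad, *Krt7* and *Krt19* rose (2 of 7 tested, against 0.89% of all genes), and all 7 had a log2 fold change above 0 (median 0.45). *Krt19* had 97.0, 119.7, 121 and 116 CPM with FGFRi, 73.1, 62.2, 76.2 and 92.4 CPM with DMSO and 130.0, 114, 133 and 121 CPM with MEKi, with no overlap between FGFRi and DMSO (log2 fold change 0.59, standard error 0.145, edgeR FDR 0.0168). *Krt7* had 52.0, 71.7, 75.4 and 106 CPM against 46.5, 54.7, 39.8 and 54.0 CPM, with FGFRi M2 inside the DMSO range (0.66, edgeR FDR 0.0124). The uroplakin *Upk3b*, with most counts on the list, had 174, 161, 135 and 191 CPM against 101, 122, 115 and 148 CPM and did not pass (0.45, edgeR FDR 0.0789). *Krt19* was lost in the fit to total counts, in the fit to set 4 and in both fits to the 8 libraries, *Krt7* in the unblocked one of these, and with a library left out calls were lost for *Krt19* without FGFRi M4, FGFRi M5, FGFRi M6, DMSO M2 or DMSO M4 (0.50 to 0.69) and *Krt7* without FGFRi M6, DMSO M2 or DMSO M5 (0.45 to 0.79). Between FGFRi and MEKi, *Krt18* was higher with FGFRi (0.72, edgeR FDR 0.00238), and *Krt8*, *Krt7* and *Krt19* were not DEGs.

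**Figure D4:**
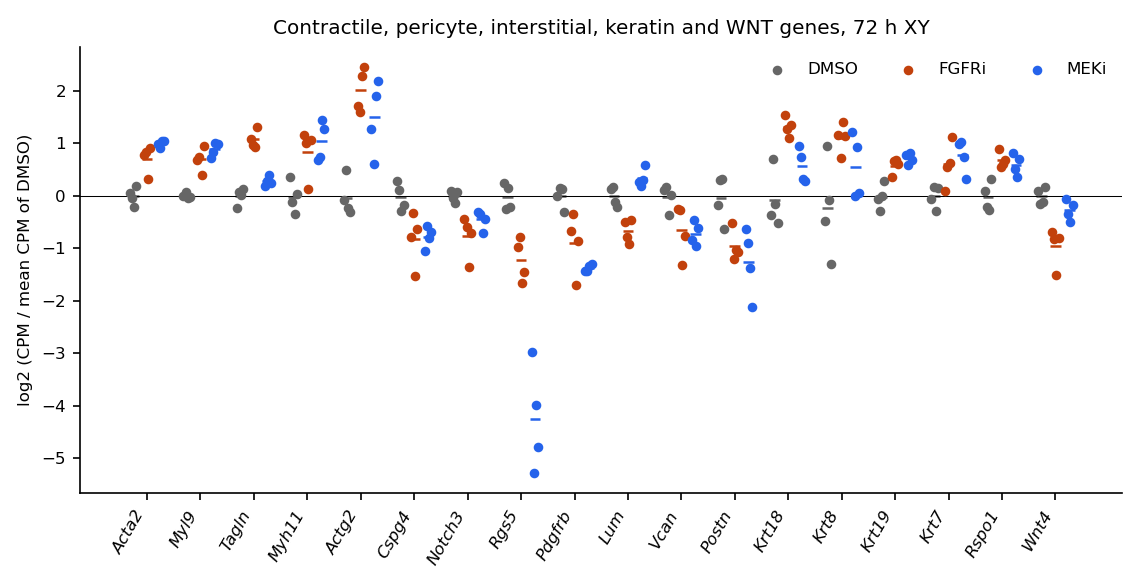
Each point is a 72 h library, as the log2 of its CPM over the mean CPM of the 4 DMSO libraries for that gene, for contractile (*Acta2* to *Actg2*), pericyte (*Cspg4* to *Rgs5*), interstitial and matrix (*Pdgfrb* to *Postn*), keratin, and WNT pathway genes (*Rspo1*, *Wnt4*); bars are means of the points. FGFRi libraries (orange) lie mostly above 0 for contractile and keratin genes and below 0 for pericyte genes and *Wnt4*, and MEKi (blue) is far lower than FGFRi in *Rgs5*.

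*Rspo1* and *Wnt4*, a pair of secreted factors that act together in WNT/β-catenin signalling in the ovary, moved in opposite directions. *Wnt4* (chromosome 4 from 137004373 to 137027037) had 91.8, 84.4, 52.4 and 84.9 CPM with FGFRi, 159, 133, 137 and 167 CPM with DMSO and 143, 118, 106 and 133 CPM with MEKi. All FGFRi libraries lay below all DMSO libraries, with M5 lowest, and the log2 fold change was −0.94 (standard error 0.127, edgeR FDR 6.73e-06); against MEKi it was −0.68, edgeR FDR 0.000165. *Rspo1* (chromosome 4 from 124879876 to 124902892) had 78.5, 61.5, 63.9 and 67.7 CPM with FGFRi, 44.9, 36.3, 34.9 and 53.1 CPM with DMSO and 74.0, 60.02, 54.2 and 68.2 CPM with MEKi. It was higher with FGFRi in 4 of 4 libraries (log2 fold change 0.67, standard error 0.124, edgeR FDR 0.000934) and not a DEG against MEKi. Both were called whichever library was left out. Neither gene passed the test against 1.5-fold. The paper reported no change in either gene in somatic cells with FGFRi, at its thresholds of FDR and fold change. Both were also higher in XX than XY cells after 24 h with DMSO, at log2 fold changes of 1.53 and 2.45. On the pre-granulosa cell list they were the only DEGs of 13 genes (median 0.29), where 0.89% of all genes were higher and 0.903% lower. *Foxl2*, the defining factor of that cell, was at 10.4 to 23.7 CPM with FGFRi and 13.3 to 21.6 with DMSO. Of 8 WNT target genes tested 0 were DEGs (median 0.20), and the one with most counts, *Axin2*, overlapped between the groups (0.22, edgeR FDR 0.628).

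The DEGs were then sorted by whether they were sex-biased in libraries that are in neither group. At 24 h with DMSO alone, XX and XY gonads differed in 3003 DEGs (19.5%). Of all genes tested, 1382 were higher in XX (8.98%) and 1621 in XY (10.5%). Of the 137 genes that rose with FGFRi, 62 were higher in XX (45.3%), 28 higher in XY (20.4%) and 47 neither, with a median log2 fold change of XX against XY of 0.49. The 139 genes that fell contained 7 higher in XX (5.04%), 84 higher in XY (60.4%) and 48 neither, with a median of −0.92. On the autosomes the numbers were 59 and 28 of 131 for the genes that rose and 6 and 82 of 135 for those that fell. Against all genes tested, the share higher in XX was larger among the increases and smaller among the decreases, and the share higher in XY was larger in both.

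No gene on the Sertoli cell list was called lower with FGFRi, where 0.903% of all genes were. At that share the lack of such calls is no result about this list. Of 22 tested 21 had a log2 fold change above 0 (median 0.47). The only DEG was the tight junction gene *Cldn11*, which rose, as did 0.89% of all genes. It had 89.5, 92.6, 161 and 99.9 CPM with FGFRi against 57.2, 81.6, 51.3 and 47.4 CPM with DMSO, without overlap and with M5 highest (log2 fold change 0.91, standard error 0.190, edgeR FDR 0.00359). Clusterin (*Clu*), the Sertoli gene with most counts, had 1243, 1256, 1813 and 1409.7 CPM against 864, 1239, 1293 and 749 CPM (0.47, edgeR FDR 0.0651), and the groups overlapped. *Sox9* (0.29), *Dmrt1* (0.45) and *Dhh* (0.73) did not pass. The summed level was 3181, 3149.8, 5274 and 3410.3 CPM with FGFRi, 2377, 3148, 3271 and 1960.3 CPM with DMSO and 1705, 1626, 2218 and 1767 CPM with MEKi, and 18 of the 22 genes were higher with FGFRi than with MEKi (4.72% of all genes), with a median of 1.34. The number called against DMSO depended on the pools: it was 0 without FGFRi M5, 3 without FGFRi M2, 4 without DMSO M5 and 5 with no filter on low counts. The number of all genes called moved as well, from 91 without FGFRi M5 to 363 with no filter. The call on *Cldn11* was lost without FGFRi M5 (0.67 to 1.09).

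Steroidogenic genes of foetal Leydig cells gave 1 DEG of 11, an increase (0.89% of all genes), with a median of 0.35. *Hsd3b1*, which makes the precursors of testosterone, had 314, 395, 563 and 487 CPM with FGFRi, 252, 255, 351 and 239.7 CPM with DMSO and 579, 548, 804 and 492 CPM with MEKi. FGFRi M2 lay inside the DMSO range, and the log2 fold change was 0.69 (standard error 0.173, edgeR FDR 0.0185). *Inha*, an inhibin subunit and the member with most counts, had a log2 fold change of 0.57 with an edgeR FDR of 0.0144, just short of 1.5-fold. The count on this list was 4 with no filter on low counts, 3 without FGFRi M2 or DMSO M5, and 0 with DESeq2 or without FGFRi M5, FGFRi M6, DMSO M2 or DMSO M6. Of all genes, 363 were called with no filter and 292 with DESeq2. Without FGFRi M5, FGFRi M6, DMSO M2 or DMSO M6 the number was 91, 170, 123 and 162. With a library left out the call was lost for *Hsd3b1* without FGFRi M5, FGFRi M6, DMSO M2, DMSO M4 or DMSO M6 (0.54 to 0.82).

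A pair of genes of meiotic entry, a programme of germ cells, rose in the cells from which germ cells had been sorted away. *Smc1b*, a cohesin subunit used in meiosis, had 13.9, 15.6, 19.0 and 14.2 CPM with FGFRi, 3.99, 6.47, 6.47 and 1.42 CPM with DMSO and 5.22, 6.88, 7.20 and 6.45 CPM with MEKi. Each FGFRi library was more than 1.5-fold above each DMSO library, and the log2 fold change was 1.80 (standard error 0.371, edgeR FDR 0.00324). *Sycp1*, of the synaptonemal complex, had 2.31, 7.38, 8.62 and 2.93 CPM (4 to 24 counts) against 0.665, 1.49, 0.498 and 2.37 CPM (1 to 5 counts), with FGFRi M2 just below DMSO M6 (2.14, edgeR FDR 0.0196). They were the 2 DEGs among 7 tested of 12 listed genes, where 0.89% of all genes were higher (median 1.89). Germ cell genes outside meiosis were measured beside them. Of 9 tested 0 were DEGs, where 1.79% of all genes were, so the lack of calls is no result about them. The median was −0.019, and their summed level was 19.6, 46.3, 61.1 and 38.9 CPM with FGFRi and 33.2, 54.7, 43.8 and 28.0 CPM with DMSO. *Dazl*, the germ cell gene with most counts, had 4.62, 17.6, 18.0 and 7.11 CPM against 6.98, 8.95, 8.47 and 2.84 CPM (0.86, edgeR FDR 0.266). Among the FGFRi libraries *Dazl*, *Sycp1* and *Smc1b* were all highest in M4 and M5. Among the DMSO libraries *Sycp1* was highest in M6, where *Dazl* and *Smc1b* were lowest. The part of germ cell RNA left after the sort was not tested further. *Stra8*, which germ cells need to enter meiosis, was at 0 to 5.39 CPM with FGFRi and 1.66 to 3.98 with DMSO. *Smc1b* was also higher in XX than XY somatic cells at 24 h (2.23, edgeR FDR 6.11e-11). The call was lost for *Sycp1* without FGFRi M4, FGFRi M5, DMSO M2 or DMSO M5 (1.80 to 2.62) and in 3 of the other settings.

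The largest increase by rule was in *Tnfsf11* (chromosome 14 from 78514885 to 78545490), which encodes RANKL, the cytokine that drives osteoclast formation. It had 6.93, 5.74, 9.70 and 12.55 CPM (12 to 30 counts) with FGFRi, 0.997, 2.98, 2.49 and 1.42 CPM (3 to 6 counts) with DMSO and 2.85, 7.65, 5.01 and 2.15 CPM with MEKi. Every FGFRi library held more than 1.5-fold the highest DMSO level, and the log2 fold change was 2.18 (standard error 0.494, edgeR FDR 0.0091); without DMSO M2 it was not called (1.91 to 2.44 with a library left out). Its receptor *Tnfrsf11a* and decoy receptor *Tnfrsf11b* were too low to be tested. *Thbs4*, a thrombospondin of the matrix, had 12.7, 22.1, 17.2 and 23.8 CPM against 7.98, 3.98, 8.47 and 4.74 CPM (1.58, edgeR FDR 0.0105), and *Tnfaip6*, a hyaluronan-binding protein, had 9.24, 9.01, 10.4 and 10.9 CPM against 3.99, 0.497, 6.47 and 0.947 CPM (1.69, edgeR FDR 0.0366). Neither overlapped, as the rule that named them required, and both were at similar levels with MEKi, at 11.4 to 26.3 and 7.59 to 16.0 CPM. Calls were lost for *Thbs4* without FGFRi M6 or DMSO M6 (1.42 to 1.73) and *Tnfaip6* without FGFRi M5, FGFRi M6, DMSO M2, DMSO M4 or DMSO M6 (1.37 to 2.27), and *Tnfaip6* also in the fit to the 8 libraries alone.

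*Derl3*, which takes part in clearing misfolded proteins from the endoplasmic reticulum (ER), had 9.81, 9.83, 20.5 and 15.5 CPM with FGFRi and 4.65, 3.48, 4.48 and 4.26 CPM with DMSO. The lowest FGFRi library was above the highest DMSO library by more than 1.5-fold, and the log2 fold change was 1.72 (standard error 0.307, edgeR FDR 0.000594); it was higher than with MEKi as well (1.08, edgeR FDR 0.00823). *Sesn2*, a stress-induced inhibitor of mTORC1, had 18.5, 18.4, 17.2 and 24.7 CPM against 11.3, 9.95, 8.96 and 6.16 CPM, without overlap (1.09, edgeR FDR 0.0237). They were the only DEGs, both increases (0.89% of all genes), of 26 ER stress and amino acid response genes, whose median was 0.028. The ER chaperone *Hsp90b1*, with most counts, did not pass (−0.15, edgeR FDR 0.629). *Cdkn1a*, the cell cycle inhibitor p21, had 49.1, 47.9, 65.0 and 41.0 CPM against 21.9, 36.3, 24.9 and 27.5 CPM and 29.4, 28.7, 40.1 and 25.8 CPM with MEKi. No FGFRi library overlapped the DMSO libraries (log2 fold change 0.90, standard error 0.181, edgeR FDR 0.00268; against MEKi 0.70, edgeR FDR 0.00584). The 4 other CDK inhibitors tested did not pass, and *Cdkn1c* (p57), the one with most counts, had 379, 372, 318 and 424 CPM against 323, 329, 487 and 389 CPM. Of 26 proliferation genes 0 were DEGs, where 1.79% of all genes were, with a median of 0.061 (cyclin D2, *Ccnd2*, −0.042, edgeR FDR 0.906). This does not show that proliferation was unchanged. By flow cytometry at the same dose and time, the paper reported less Sertoli cell proliferation with FGFRi. RNA from a mixture of cells does not resolve Sertoli cells alone. Of the calls on *Derl3*, *Sesn2* and *Cdkn1a*, only that on *Sesn2* was lost with a library left out. It was lost without FGFRi M5, FGFRi M6 or DMSO M6 (0.95 to 1.23).

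The other largest increases were single genes of diverse function. *Prune2* had 9.81, 14.3, 11.9 and 10.04 CPM with FGFRi, 6.32, 2.98, 0.996 and 1.42 CPM with DMSO and 1.42, 3.44, 5.32 and 4.297 CPM with MEKi, and was called whichever library was left out (log2 fold change 1.85, standard error 0.379, edgeR FDR 0.00314). The claudin *Cldn10* (log2 fold change 1.60), *Lix1* (1.36), the hind limb homeobox gene *Pitx1* (1.26), the class I histocompatibility gene *H2-Q10* (1.23), the interferon-induced GTPase *Gbp2* (1.22) and the lipid droplet protein *Cidea* (1.198) had edgeR FDRs from 0.00692 to 0.0492. In each the libraries did not overlap, which the rule that named them required. *H2-Q10* and *Gbp2* have close relatives in the genome, and sharing of reads with them was not tested. Calls were lost for *Cldn10* without FGFRi M4, FGFRi M5, FGFRi M6, DMSO M2, DMSO M4, DMSO M5 or DMSO M6 (1.29 to 1.97), *Lix1* without FGFRi M2, FGFRi M5, DMSO M2, DMSO M4, DMSO M5 or DMSO M6 (1.14 to 1.57), *Pitx1* without FGFRi M4, FGFRi M5, DMSO M2, DMSO M5 or DMSO M6 (1.08 to 1.33), *H2-Q10* without FGFRi M5 or DMSO M6 (0.87 to 1.39), *Gbp2* without FGFRi M5 or DMSO M2 (0.97 to 1.37) and *Cidea* without FGFRi M5 or DMSO M6 (0.91 to 1.34). Beyond these, *Cldn10* was lost in 3 other settings, *Lix1* in 3 and *Cidea* in 1 (DESeq2).

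Outside the macrophage genes and *Ccnd1*, the largest decreases included growth factor and adhesion genes. *Gdf10*, a BMP family ligand, had 4.62, 4.10, 5.03 and 2.09 CPM with FGFRi, 17.3, 16.9, 15.9 and 7.58 CPM with DMSO and 7.12, 5.35, 5.95 and 3.76 CPM with MEKi. DMSO M6 was low among the DMSO libraries, yet every FGFRi library lay below it (log2 fold change −1.86, standard error 0.353, edgeR FDR 0.00141). *Hpse2*, a relative of heparanase that binds heparan sulphate, had 7.51, 5.33, 2.51 and 7.53 CPM against 15.3, 18.4, 13.4 and 28.4 CPM and 7.59, 4.97, 4.70 and 5.91 CPM with MEKi (−1.75, edgeR FDR 0.00147). *Itga8*, the integrin α8 subunit, had 5.20, 11.1, 7.54 and 16.3 CPM against 35.2, 29.8, 38.8 and 34.1 CPM and 20.9, 31.0, 40.4 and 8.06 CPM with MEKi (−1.75, edgeR FDR 0.000416). None of these overlapped between FGFRi and DMSO, as the rule that named them required, and each was called whichever library was left out. The unnamed transcripts *D630033O11Rik* (−1.44, edgeR FDR 0.0229) and *Gm17396* (−1.39, edgeR FDR 0.00711) also fell, and their calls were lost for *D630033O11Rik* without FGFRi M4, FGFRi M5, DMSO M2 or DMSO M4 (−1.92 to −1.23) and *Gm17396* without FGFRi M5 (−1.58 to −1.24). Of 9 BMP and TGF-beta target genes 0 were DEGs, where 1.79% of all genes were (median −0.19). *Id3* had a log2 fold change of −0.0035, edgeR FDR 0.997.

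Of 21 sterol and fatty acid synthesis genes 1 fell and none rose, against 0.903% and 0.89% of all genes. A log2 fold change below 0 was found in 17 of them, and the median was −0.23. The DEG *Mvd*, of the mevalonate pathway, had 18.5, 22.1, 25.9 and 23.4 CPM with FGFRi, 26.3, 32.3, 39.3 and 52.1 CPM with DMSO and 45.1, 47.8, 44.5 and 44.0 CPM with MEKi. Its FGFRi libraries lay below the DMSO libraries, with FGFRi M5 and DMSO M2 almost touching (log2 fold change −0.71, standard error 0.184, edgeR FDR 0.0228), and below the MEKi libraries (FGFRi against MEKi −0.998, edgeR FDR 7.59e-05). The desaturase *Scd2*, with most counts, did not pass (0.0047, edgeR FDR 0.995). The call was lost for *Mvd* without FGFRi M2, FGFRi M6 or DMSO M6 (−0.87 to −0.51) and in 2 other settings. Of 16 glycolysis and hypoxia genes 0 were DEGs (median 0.077), and *Aldoa* had a log2 fold change of 0.21, edgeR FDR 0.331.

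The direct test of FGFRi against MEKi at 72 h gave 981 DEGs (6.37%), 727 higher with FGFRi (4.72%) and 254 lower (1.65%). It shares the FGFRi libraries with the test against DMSO. Among genes that were DEGs in both, the furthest above MEKi were *Glb1l3*, *Rgs5*, *Tceal6*, *Abcg1* and *Sycp1*. *Glb1l3*, of the β-galactosidase family, had 16.7, 17.6, 30.9 and 18.4 CPM with FGFRi, 9.97, 10.4, 8.96 and 5.21 CPM with DMSO and 0.475, 2.29, 1.88 and 0.537 CPM with MEKi, so the groups lay apart with DMSO between them (FGFRi against DMSO 1.27, edgeR FDR 0.041; against MEKi 3.86, edgeR FDR 1.48e-08). *Abcg1*, a cholesterol exporter, had 114, 88.5, 151 and 122 CPM, 49.2, 56.2, 66.2 and 43.1 CPM and 28.0, 28.7, 32.6 and 37.1 CPM in the same order. It too was raised with FGFRi and lower with MEKi (FGFRi against DMSO 1.15, standard error 0.175, edgeR FDR 5.93e-05; against MEKi 1.92, edgeR FDR 1.36e-10; MEKi against DMSO −0.76, edgeR FDR 0.00626), as was *Tceal6* on the X chromosome (0.99, 2.004 and −1.01).

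The furthest below MEKi were *Angptl7*, *D430036J16Rik*, *Itga8* and the predicted genes *Gm6089* and *Gm5067*. *Angptl7*, a secreted angiopoietin-like protein, had 6.35, 4.51, 18.7 and 5.44 CPM with FGFRi, 20.9, 15.9, 23.4 and 23.2 CPM with DMSO and 46.5, 47.4, 35.7 and 48.3 CPM with MEKi. FGFRi M5 lay inside the DMSO range while the other FGFRi libraries were far below it, and MEKi was above all of them (FGFRi against DMSO −1.200, edgeR FDR 0.0498; against MEKi −2.28, edgeR FDR 1.81e-06). *D430036J16Rik* had log2 fold changes of −1.74 against DMSO and −1.79 against MEKi, *Gm6089* −1.34 and −1.26, and *Gm5067* −1.10 and −1.24. The last pair lie close together on chromosome 5 and may share reads with copies, which was not tested. Calls against DMSO were lost for *Glb1l3* without FGFRi M5, FGFRi M6, DMSO M2, DMSO M4, DMSO M5 or DMSO M6 (1.01 to 1.36), *Tceal6* without FGFRi M5 (0.88 to 1.05), *Angptl7* without FGFRi M2, FGFRi M4, FGFRi M6, DMSO M2, DMSO M5 or DMSO M6 (−1.95 to −0.98), *D430036J16Rik* without FGFRi M2, FGFRi M4, FGFRi M6, DMSO M4 or DMSO M6 (−2.14 to −1.52), *Gm6089* without FGFRi M5 (−1.55 to −1.15) and *Gm5067* without FGFRi M5 or DMSO M6 (−1.25 to −0.78); *Angptl7* was also lost in 2 other settings, and the voom fit without the fold threshold lost *D430036J16Rik* and *Gm5067*.

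The endothelial list separated the inhibitors without a DEG between FGFRi and DMSO. Of 20 genes 10 were higher with FGFRi than with MEKi and 1 lower, against 4.72% and 1.65% of all genes (median 1.52). *Gpihbp1*, the lipase anchor of capillaries, had 18.5, 10.7, 30.5 and 10.04 CPM with FGFRi, 24.3, 24.4, 28.9 and 9.001 CPM with DMSO and 0, 0.382, 0 and 0.537 CPM with MEKi, and the angiopoietin receptor *Tie1* had 7.51, 6.56, 8.62 and 6.69, 6.32, 10.4, 11.5 and 3.79 and 0, 0, 0.313 and 0 CPM in that order; these 2 genes were chosen after their values were seen. The gene of the list with most counts, *Cd34*, went the other way, with 36.8 to 51.4 CPM with FGFRi, 42.2 to 63.7 with DMSO and 60.4 to 84.5 with MEKi (FGFRi against MEKi −0.68, edgeR FDR 0.00484).

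**Figure D5:**
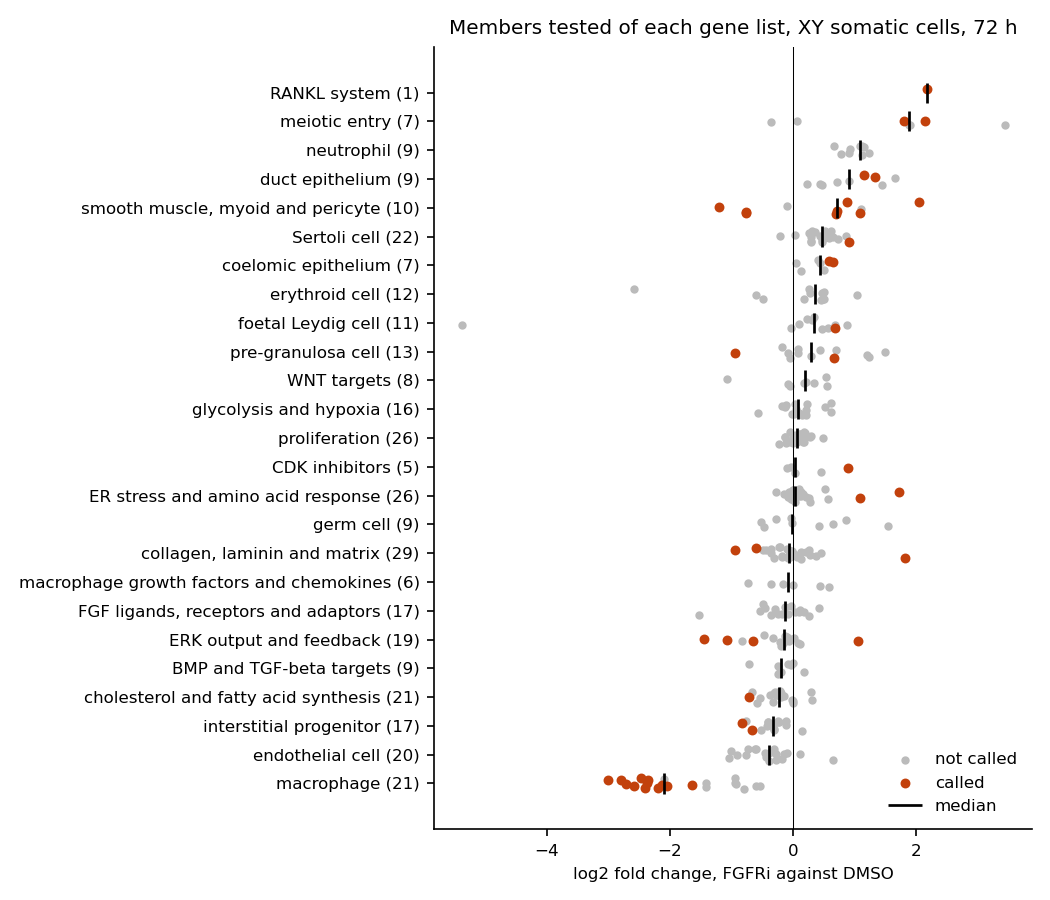
Log2 fold change of FGFRi against DMSO for each member tested of the 25 gene lists (number tested in parentheses), with DEGs in orange, other genes in grey and a black bar at the list's median; lists are ordered by median. Macrophage genes have the lowest median, −2.09, with 12 of 21 called. The medians of the ERK, FGF, proliferation and matrix lists lie near 0, with 15 of 19 ERK genes below 0.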

How the data were processed

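Somatic cells were sorted as GFP-negative from pooled cultured gonads and their RNA was sequenced from the 3′ end with unique molecular identifiers. The authors deposited raw counts per gene: reads were aligned to GRCm39 with Rsubread, identifiers were counted once per gene over exons with scPipe, and 2 sequencing lanes were added. Replicates were not pooled. Tool versions and the annotation release are not given in the sources used here, and the methods that name these steps are those of the germ cell libraries of the study. Library totals limit precision as given with the depth, and limits at a count of 0 cover counting error only.

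From the counts, 39 libraries in 10 groups were fitted together with edgeR 4.0.16 (R 4.3.3): filterByExpr by group, TMM scaling and a quasi-likelihood fit with 1 coefficient per group. Genes with a Benjamini-Hochberg FDR below 0.05 and at least 1.5-fold were called DEGs. CPM used the TMM-scaled library sizes. 1 deposited column with no matching label was not used. Gene names came from GENCODE M39 (40391 of 42422 identifiers, 99.0% of counts). Alternatives were glmTreat, voom with quality weights (limma 3.58.1), DESeq2 1.42.0, other scalings and filters, fewer libraries, a replicate block and each library left out. In counts simulated for 15390 genes, known changes were put only into genes with at least 5 CPM in the DMSO group. Of the genes changed, the test recovered 92% of those raised 2-fold and 72% of those lowered to 0.5-fold. Changes in genes at lower levels, changes below 2-fold and a pool that stands apart were not simulated.

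The members and the 25 gene lists were chosen with earlier results of these data known. Named genes were the 15 largest DEGs in each direction that averaged 5 CPM or more without overlap of the groups, the DEGs (up to 4 a direction) and the gene with most counts of each list, all members of the ERK, FGF, RANKL and macrophage ligand lists, and the 5 DEGs furthest above and below MEKi. Within the FGFRi and DMSO groups of 72 h no pair of libraries agreed within sampling noise, and other groups were not checked for this.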

Additional observations from a re-analysis of the deposited data

Results flagged for a closer look

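Dixon's test at the 95% level, which flags about 1 in 20 groups by chance, was run on part of the values reported. These were the total counts, genes detected, summed levels of the lists, and genes named for the largest changes or as furthest from MEKi. Values of other genes, such as *Spry4* and *Ly6d*, were not tested this way. In 10 of the values tested a single library stood apart from the other 3 of its group. Of these, 3 were in FGFRi M5: the summed level of Sertoli cell genes, at 5274 CPM, *Glb1l3*, at 30.9 CPM, and *Angptl7*, at 18.7 CPM against 4.51 to 6.35 CPM in the other FGFRi libraries. FGFRi M2 stood apart in the summed level of BMP and TGF-beta target genes, at 994 CPM. In DMSO M5, *Ccnd1* had 176 CPM, *Comp* 15.4 CPM and *Pitx1* 4.98 CPM, each the highest of its group. In DMSO M6, *Gdf10* had 7.58 CPM, the lowest of its group, and the summed level of interstitial progenitor genes was 6216 CPM. The total count of DMSO M2 was 2905471, above the other 3. Without DMSO M5 the log2 fold change of *Ccnd1* was the weakest, at −1.10, and it was still called.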

How the results depend on the processing

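Testing against 1.5-fold in place of no change was the setting that moved the counts most. With glmTreat, FGFRi against DMSO gave 6 genes (1 higher, 5 lower), FGFRi against MEKi 213 (190 and 23) and XX against XY 1624 (751 and 873). With voom and treat the counts were 0 (0 and 0), 93 (82 and 11) and 1185 (585 and 600). Voom tested against no change, chosen after treat had called none, gave 264 DEGs (124 and 140), 212 of them among the 276. The other scalings, filters, DESeq2 and smaller fits gave 225 to 363, and 206 genes were higher without a filter on low counts. Leaving out 1 library gave 91 to 357 DEGs between FGFRi and DMSO (49 to 183 higher, 42 to 174 lower) and 601 to 1020 between FGFRi and MEKi (452 to 759 higher, 149 to 268 lower); FGFRi M5, FGFRi M6, DMSO M2 and DMSO M6 moved the first count by over 1.5 times and FGFRi M5 the second. In all, 52 genes (22 higher, 30 lower) were DEGs in each fit with a library left out and each of the 9 settings tested against no change. The cause of these shifts was not tested.

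The values do not settle whether the replicate labels pair the pools. Over 11018 genes the correlation of same-numbered deviations was 0.146 (M2), −0.00895 (M4), 0.134 (M5) and 0.0838 (M6) between FGFRi and DMSO. FGFRi M2 and M6 correlated best with their own number while M4 and M5 did not (FGFRi M5 with DMSO M4, 0.156). In fits to the 8 libraries, 225 genes (106 higher, 119 lower) were DEGs against DMSO without the replicate block and 331 (160 and 171) with it. With the block 500 (376 and 124) were DEGs against MEKi.

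Among the genes named by rule, changes of sign were limited to genes that were not DEGs. With voom the log2 fold change was −0.18 in *Ccl2*, 0.033 in *Cdkn1c*, −0.041 in *Dusp5*, −0.021 in *Fgf1*, 0.10 in *Fgfr3*, −0.0075 in *Gab1* and 0.015 in *Id3*. It was −0.0036 in *Ccl2* and −0.006996 in *Scd2* on total counts, 0.011 in *Id3* without a filter and 0.0067 at 1 CPM, −0.011 in *Ccl2* with DESeq2, and −0.0098 and −0.011 in *Scd2* in the fits to set 4 and to the 8 libraries. With the block it was −0.14 in *Ccl2*, 0.0082 in *Fgfr3* and −0.0098 in *Scd2*. With a library left out the ranges spanned 0 for *Dusp5* −0.12 to 0.19, *Fgf1* −0.12 to 0.38, *Fgf7* −0.50 to 0.12, *Scd2* −0.059 to 0.034, *Ccnd2* −0.13 to 0.025, *Dusp4* −0.40 to 0.0399, *Id3* −0.082 to 0.0805, *Ccl2* −0.44 to 0.23, *Cdkn1c* −0.11 to 0.10, *Egr1* −0.12 to 0.0096, *Etv4* −0.17 to 0.39, *Fgfr3* −0.24 to 0.14, *Gab1* −0.067 to 0.093, *Il17rd* −0.29 to 0.071, *Sos1* −0.20 to 0.057, *Dusp6* −0.17 to 0.077 and *Fos* −0.095 to 0.20. Genes at a few counts a library, such as *C1qa*, were limited by depth.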

Other observations

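Beyond the genes named by rule, some DEGs that were called whichever library was left out are given here, chosen after their values were seen. *Slit2*, a secreted guidance ligand, had 54.8, 55.3, 40.6 and 36.0 CPM with FGFRi, 111, 104, 80.7 and 99.0 CPM with DMSO and 73.6, 54.3, 85.5 and 85.4 CPM with MEKi, without overlap between FGFRi and DMSO (log2 fold change −1.09, standard error 0.171, edgeR FDR 7.49e-05). Its receptor *Robo1* had 12.1, 16.0, 18.0 and 18.0 CPM against 26.9, 28.8, 28.9 and 42.2 CPM (−0.96, edgeR FDR 0.0102), and this call was lost without DMSO M6. The neurotrophin receptor *Ngfr* had 92.9, 97.5, 47.4 and 86.6 CPM against 173, 149, 166 and 150.2 CPM (−0.99, edgeR FDR 6.73e-06), and the prolactin receptor *Prlr* had 132, 152, 84.4 and 128 CPM against 237, 227, 187 and 239.7 CPM with DMSO and 269, 239, 281 and 283 CPM with MEKi (−0.85, edgeR FDR 0.000305). In both, FGFRi M5 was the lowest library and the groups did not overlap. *Wnt5b*, a WNT ligand, had 6.56 to 8.78 CPM with FGFRi against 16.4 to 19.9 CPM (−1.21, edgeR FDR 0.00602). *Hmga2*, a chromatin protein of growing embryonic tissue, had 43.4 to 53.1 CPM against 81.8 to 114 CPM (−0.97, edgeR FDR 5.93e-05), with 23.5 to 41.8 CPM in the MEKi libraries.

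Among small heat shock proteins, *Hspb1* had 104, 126, 173 and 142 CPM with FGFRi and 69.5, 85.5, 80.7 and 76.7 CPM with DMSO (0.82, edgeR FDR 0.00147), and *Cryab*, αB-crystallin, had 53.7, 39.3, 50.7 and 57.3 CPM against 29.6, 28.3, 23.9 and 28.0 CPM (0.86, edgeR FDR 0.00196). Neither overlapped. *Hspb8* had 21.3 to 34.5 CPM against 11.8 to 19.4 CPM (0.88, edgeR FDR 0.0366), and its call was lost without FGFRi M5, FGFRi M6, DMSO M2, DMSO M4 or DMSO M6 (0.74 to 1.02).

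*Ly6d*, a surface protein, was a DEG (−4.40, edgeR FDR 0.0119) that rested on 1 library: it had 2.89, 1.23, 1.08 and 0 CPM with FGFRi and 0.332, 2.98, 105 and 0.474 CPM with DMSO, of which M5 alone was high, and MEKi M2 had 36.5 CPM. It was not called without DMSO M5, FGFRi M5 or FGFRi M6.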
